A study of Homo sapiens with 20 samples.

Results

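The MYC, MAX and MXD network was examined here as 10 genes, MYC, MAX, MXI1, MXD1, MXD3, MXD4, MNT, MLX, MLXIP and MLXIPL, out of 20163 protein-coding genes. A HIF1A peak was assigned to a member when its centre lay between 10 kb upstream of the gene's start and 10 kb past its end, in GRCh37 coordinates with the GENCODE release 44 annotation mapped to that build. This gave 36 peaks out of 26484 in all 8 peak lists, 29 from hypoxia and 7 from normoxia. HIF1A binding was profiled by ChIP-seq, the sequencing of DNA recovered with an antibody against the protein. HCT116 and RKO cells come from colon carcinomas and A549 and H460 cells from lung carcinomas, and the labels give no further genotype or drug for any of the 4 lines. Cells stayed in normoxia or were moved to 1% oxygen (hypoxia) for 24 h, and every line and condition had 2 ChIP libraries, with a single input library of genomic DNA for each line. The authors pooled both libraries of a group before calling peaks, so each value below belongs to 1 pooled list and has no replicate error.

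MYC and its relatives are basic helix-loop-helix leucine zipper proteins that bind DNA as dimers. MYC pairs with MAX to activate genes, including many for ribosome production and cell growth, at the hexamer CACGTG, called the E-box. MXI1, MXD1, MXD3, MXD4 and MNT compete for MAX and recruit SIN3 corepressors to the same kind of site. MLX is a second shared partner, which pairs with the glucose-sensing activators MLXIP (MondoA) and MLXIPL (ChREBP) and also with some MXD proteins and MNT. HIF1A itself binds with ARNT at the core of the hypoxia response element, which reads ACGTG or GCGTG, and the E-box contains the first of these.

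Signal was the normalized tag count, the number of ChIP tags in a peak scaled to a library of 10 M tags (1 M is 1000000). Values in brackets are exact 95% Poisson intervals of the tags and cover counting error only. The pooled libraries held between 41.2 and 81.5 M tags. The weakest called hypoxia peak stood at 2.09 for HCT116, at 1.94 for RKO, at 2.36 for A549 and at 2.63 for H460, so a gene without a peak had no peak that passed the list's criteria rather than no signal. The fold over input required by the authors differed by line, at 7, 6, 13 and 14 in the same order. The labels of the inputs conflict, since the descriptions of the RKO and A549 inputs name each other's line and the source name of all 4 inputs is HCT116, while the titles and the file headers give each line its own input. A wrong input would touch the folds over input and the peak calls made with them, but not the normalized tag count of a given peak, and this was not tested.

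Each of the 10 members was called in hypoxia in 1 line or more, against 51.8% of all protein-coding genes. MAX and MXI1 had a peak in all 4 lines (2 of 10 members, with 3.26% of all genes). That count became 0 when a fold over input of 14 was asked of every list, where the share of all genes was not computed. MXD1, MNT and MLX had a hypoxia peak in 2 lines, and MYC, MXD3, MXD4, MLXIP and MLXIPL in 1 line. Shares of all genes called in exactly 1 or 2 lines were not computed. By list, the HCT116 hypoxia list called 4 members (19.9% of all genes), the RKO one 6 (28.3%), the A549 one 3 (21.5%) and the H460 one 6 (18.4%). In normoxia 5 members had a peak in at least 1 line (13.1% of all genes). They were MYC, MAX and MLX in RKO (3 members, 6.93% of all genes), MXI1 in A549 (1 member, 2.76%), and MXI1 and MXD1 in H460 (2 members, 3.81%). HCT116 normoxia had no member peak, where 1.29% of all genes had one. Longer genes were called more often. Of genes at or above the members' median length of 24.2 kb, 61.2% were called in hypoxia in any line and 3.87% in every line, and of shorter genes 41.1% and 2.58% were. The members were chosen with earlier results of these data known, and these shares are a description.

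**Figure D1:**
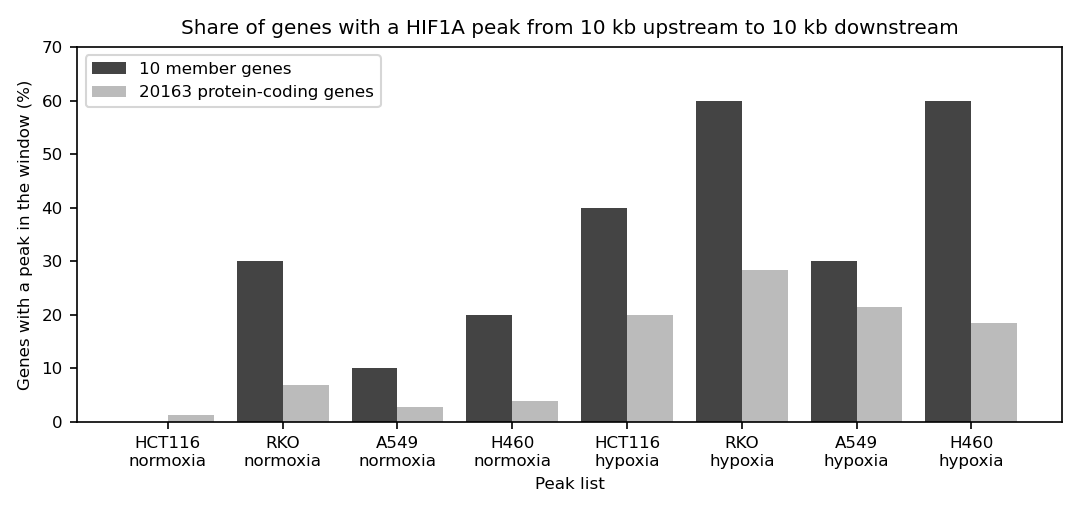
The bars give the percent of the 10 member genes (dark) and of 20163 protein-coding genes (light) with a peak in the window, for each of the 8 peak lists. The member share runs from 0 in HCT116 normoxia to 6 of 10 genes in RKO hypoxia and H460 hypoxia, where the shares of all genes are 28.3% and 18.4%.

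The 29 hypoxia peaks fell into 21 separate regions when peaks that overlapped by at least 1 bp were joined. Of these regions 16 were called in 1 line, 3 in 2 lines, 1 in 3 lines and 1 in 4 lines. Over the whole series 233 of 19625 hypoxia regions were called in all 4 lines, and shares for fewer lines were not computed. The 7 normoxia peaks lay in 7 regions, and 2 of those regions also held a hypoxia peak. The matching share over all normoxia peaks was not computed. Normalized tag counts ran from 2.58 to 58.8 in hypoxia and from 2.44 to 7.32 in normoxia. By normalized tag count the strongest member peak by far was at MXI1 in H460, a lead that narrowed on the scale relative to shared regions, given below. Of the hypoxia peaks, 18 stood above the median of their own list and 7 were in its top 10%.

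**Figure D2:**
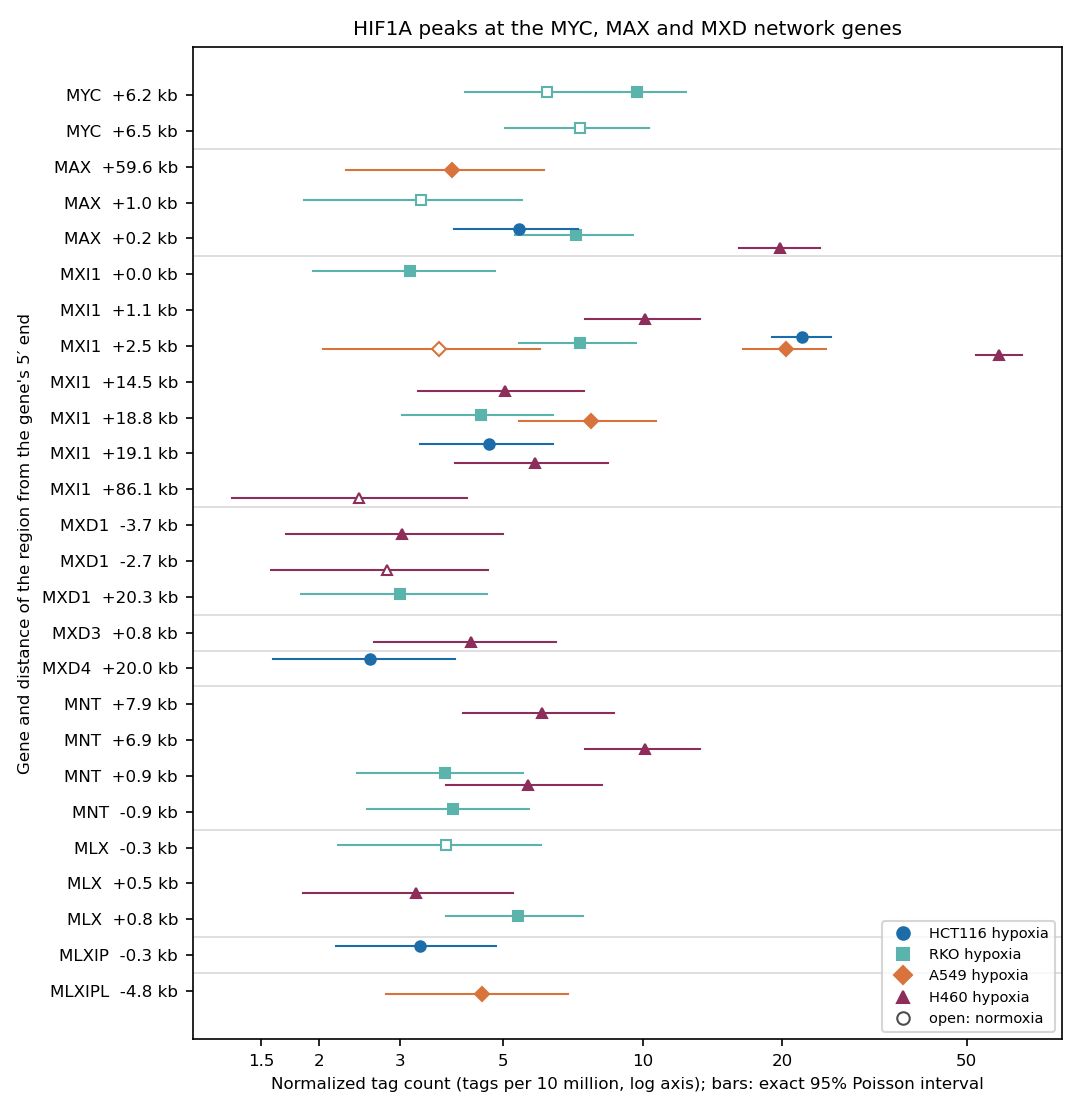
Each row is a region of a member gene, named by its distance from the gene's 5′ end, and the horizontal log axis gives the normalized tag count in tags per 10 M with exact 95% Poisson intervals. Filled symbols are hypoxia lists and open symbols normoxia lists, and the H460 value of 58.8 at MXI1 stands to the right of all others.

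MYC, the activator of the network, was called only in RKO, and in both conditions. The hypoxia peak at chr8:128753818-128753978 had a normalized tag count of 9.72 (7.50 to 12.4), and the overlapping normoxia peak at chr8:128753791-128753927 had 6.21 (4.13 to 8.97). The hypoxia value was 1.56 times the normoxia value, with an interval of 0.990 to 2.53 that included no difference, and 1.33 times (0.842 to 2.15) per base of peak width. Both peaks lay in an annotated UTR near the end of the gene, the hypoxia one 6218 bp from the gene's 5′ end and 1299 bp before its 3′ end. No ACGTG or GCGTG was found in the 200 bp at either centre. The hypoxia peak ranked 219 of 9171 in its list, but was lost when a fold of at least 6 over the surrounding region was asked. A second normoxia peak lay 328 bp further on at chr8:128754158-128754294, with 7.32 (5.04 to 10.3) and 1 GCGTG, and no hypoxia peak overlapped it. Outside the window, the nearest hypoxia peak to MYC was 66.9 kb past the gene in A549 (8.37), 85.0 kb past it in HCT116 (3.07) and 2250 kb past it in H460 (9.50).

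MAX, the partner shared by MYC and its antagonists, was bound at its promoter in 3 lines. That region had normalized tag counts of 5.4 (3.92 to 7.25) in HCT116, 7.18 (5.29 to 9.51) in RKO and 19.8 (16.1 to 24.1) in H460. The 3 peak centres lay within 13 bp of each other, between 18 and 31 bp upstream of an annotated transcript start (ENST00000394606.6_4) and 145 to 158 bp inside the gene. H460 was higher than HCT116 by 3.67 times (2.55 to 5.37) and than RKO by 2.76 times (1.94 to 3.99), while RKO and HCT116 differed by 1.33 times (0.865 to 2.05), an interval that includes no difference. The lists are not matched for immunoprecipitation efficiency, so each value was also divided by the list's median over the 233 regions called in all 4 hypoxia lists. On that scale MAX stood at 46.2% of the median in HCT116, 73.9% in RKO and 73.6% in H460, and the H460 to RKO ratio became 0.998 (0.7 to 1.44). There the ratio to HCT116 was 1.6 for both other lines, with intervals of 1.11 to 2.33 for H460 and 1.04 to 2.47 for RKO, so the RKO interval no longer includes equality.

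In A549 the MAX promoter had no called peak. The A549 peak that counts for MAX lay at chr14:65509725-65509865, in an intron 58608 bp from the nearest MAX transcript start and inside the overlapping gene FNTB, with 3.87 (2.29 to 6.11) and no motif. So the calls in all 4 lines at MAX came from different places. In RKO normoxia a peak of 3.33 (1.86 to 5.49) lay 31 bp upstream of another MAX transcript start (ENST00000553951.1_3), and no hypoxia peak overlapped it.

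The hexamer CACGTG, at which MYC and MAX themselves bind, was present in the 200 bp at the centre of 5 of the 29 hypoxia peaks and of 0 of the 7 normoxia peaks, in 6.50% of the 22452 hypoxia peaks of the series, and in 8.61% of the 22741 pairs of a protein-coding gene and a hypoxia peak in its window. These were the 3 peaks at the MAX promoter, the MLXIP peak in HCT116 and the MLXIPL peak in A549. The hexamer reads as ACGTG on both strands and so counts as 2 matches to that motif. At MAX the 2 ACGTG matches both come from it, beside 2 GCGTG. The sequences below show the 30 bases around the match nearest to each peak centre, on the strand of the gene and in GRCh37, with motif matches in either orientation in capitals. They are at chr14:65569249-65569278 (minus strand), chr12:122516277-122516306 (plus strand) and chr7:73043719-73043748 (minus strand). The CACGTG of MAX lies outside the bases shown.
MAX: gggggccgaccggGCGTGCGTGccgccgtt
MLXIP: acccgcacccacCACGTGgagccggccggg
MLXIPL: ggggaggaaaagCACGTGcgtcatcactgt

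MXI1, a repressor that competes with MYC for MAX, had 11 of the 29 hypoxia peaks. The gene covers chr10:111967363-112047123 on the plus strand and has 38 annotated transcripts with 37 different starts. Of these starts 32 lie between 18 and 21 kb from the gene's 5′ end. Its main region was called in hypoxia in all 4 lines, with a normalized tag count of 58.8 (52.3 to 66.0) in H460. HCT116 had 22.1 (19.0 to 25.5), A549 had 20.4 (16.5 to 24.9) and RKO had 7.32 (5.42 to 9.68). The 4 centres lay within 6 bp of each other, 119 to 125 bp upstream of the protein-coding transcript ENST00000361248.8_1 and 2501 to 2507 bp into the gene, where longer transcripts have an intron. Within its own list the peak took place 48 of 3877 for H460, 67 of 3996 for HCT116, 349 of 5408 for A549 and 408 of 9171 for RKO. Among the 10436 protein-coding genes with a hypoxia peak in the window, MXI1 stood at place 94 by its strongest peak. The next member, MAX, stood at place 766. These places use the highest normalized tag count in any of the 4 hypoxia lists, which are not matched for immunoprecipitation efficiency. Relative to the list's median over the regions called in all 4 lists, MYC in RKO stood at 100%. That was above MAX, at 73.9% or less, while the main MXI1 region ran from 75.3% to 219%. Within RKO hypoxia the MYC peak (9.72, place 219) stood above the MXI1 peak (7.32, place 408).

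The sequence of this region is shown because it underlies the strongest peak of the network, and is given for the H460 peak at chr10:111969797-111969943 in GRCh37, plus strand. Capitals mark GCGTG and CACGT, the reverse complement of ACGTG. Their first bases are 14 bp apart, and the nearer match lay within 6 bp of the centre in each hypoxia peak.
MXI1: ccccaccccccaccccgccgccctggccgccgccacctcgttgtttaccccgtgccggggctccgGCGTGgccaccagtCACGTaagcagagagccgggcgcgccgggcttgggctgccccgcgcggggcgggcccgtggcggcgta

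Between lines, the H460 signal at this MXI1 region was 2.67 times that of HCT116 (2.21 to 3.23), 2.88 times that of A549 (2.28 to 3.68) and 8.03 times that of RKO (5.92 to 11.1). HCT116 and A549 differed by 1.08 times (0.840 to 1.40), an interval that includes no difference. The order depended on the scale. Relative to the median of the regions called in all 4 lines, MXI1 stood at 219% for H460 and 189% for HCT116, and at 88.7% for A549 and 75.3% for RKO. There H460 and HCT116 differed by 1.16 times (0.959 to 1.40) and A549 and RKO by 1.18 times (0.825 to 1.70), while HCT116 exceeded A549 by 2.13 times (1.65 to 2.76). By value H460 was highest and RKO lowest on both scales. On the relative scale the intervals of H460 to HCT116 and of A549 to RKO include no difference, so those places are not resolved there.

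**Figure D3:**
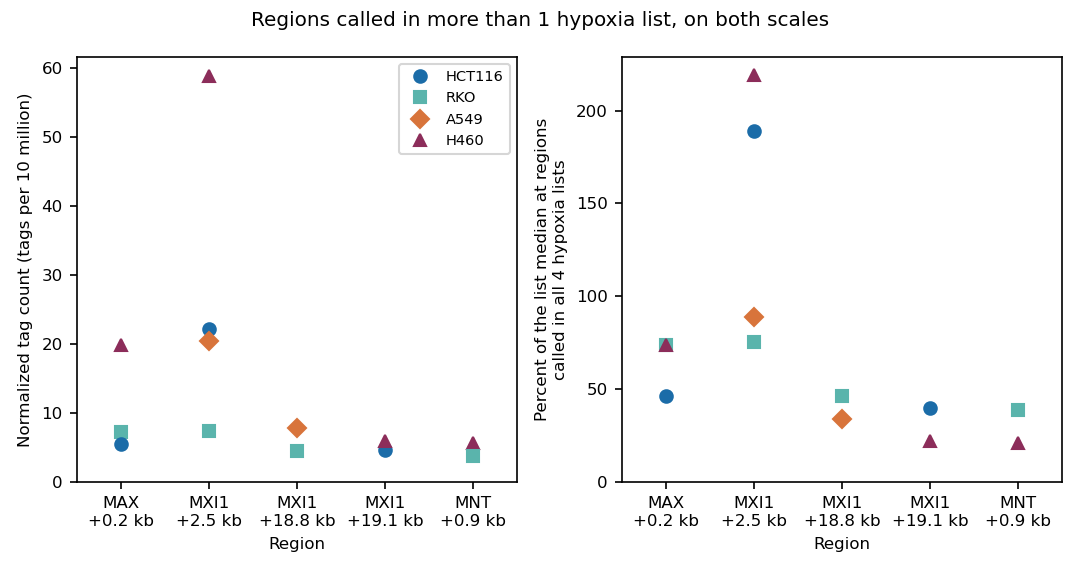
The 5 member regions called in more than 1 hypoxia list are plotted as normalized tag count in tags per 10 M (left) and as percent of the list's median over 233 regions called in all 4 hypoxia lists (right), with 1 symbol per line. At the main MXI1 region RKO is lowest on both scales, at 7.32 and 75.3%, and HCT116 moves from beside A549 to close to H460.

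The main MXI1 region was also called in A549 normoxia with 3.64 (2.04 to 6.0), and the hypoxia value of 20.4 was 5.61 times as high (3.24 to 10.4), or 5.77 times (3.33 to 10.7) per base of peak width. The normoxia peak rested on 15 tags and ranked 422 of 526. This was 1 of 2 member regions called in both conditions, beside the RKO region at MYC. In the normoxia lists of HCT116, RKO and H460 the region had no peak, where the weakest called peaks stood at 2.89, 2.44 and 2.44.

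A second group of MXI1 peaks lay among the cluster of downstream transcript starts. RKO (4.48, 3.03 to 6.40) and A549 (7.73, 5.41 to 10.7) shared a region 156 to 159 bp upstream of ENST00000651613.1_1. HCT116 (4.66, 3.30 to 6.40) and H460 (5.86, 3.93 to 8.42) shared a neighbouring region 45 to 63 bp upstream of ENST00000652243.1_1. The centres of these regions were 280 to 301 bp apart, so each line had a peak in this stretch but not at the same position. The ratio of A549 to RKO was 1.72 (1.03 to 2.90), and 0.729 (0.436 to 1.22) relative to the regions called in all 4 lines. That of H460 to HCT116 was 1.26 (0.748 to 2.09), and 0.547 (0.325 to 0.911) on the relative scale. In both pairs the order turned over with the scale, and in each pair 1 of the 2 intervals includes no difference. Each peak held 8 or 9 GCGTG in its central 200 bp and no ACGTG. The 30 bases around the match nearest to the A549 and H460 centres, at chr10:111986170-111986199 and chr10:111986486-111986515 on the plus strand of GRCh37, are given because a GCGTG preceded by further GC letters stands in both.
MXI1 shared by RKO and A549: aggggtgtgcgcGCGTGagggtagaggagc
MXI1 shared by HCT116 and H460: ggaagggagcgcGCGTGtgggaggggcgca

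Of the remaining MXI1 peaks, 3 were called in hypoxia in 1 line each. H460 had 10.1 (7.50 to 13.3) with 3 motif matches at 1083 bp from the gene's 5′ end, 97 bp upstream of the start of a lncRNA (ENSG00000228417), and 5.05 (3.27 to 7.46) with 1 match at 14482 bp. RKO had 3.14 (1.94 to 4.80) at the first transcript start, 19 bp past it, with no match. The normoxia peak in H460, at 2.44 (1.30 to 4.17), lay 86073 bp from the 5′ end and inside the neighbouring gene SMNDC1, at a place 1095 of 1127 in a list where 98.8% of peaks had no input tag.

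**Figure D4:**
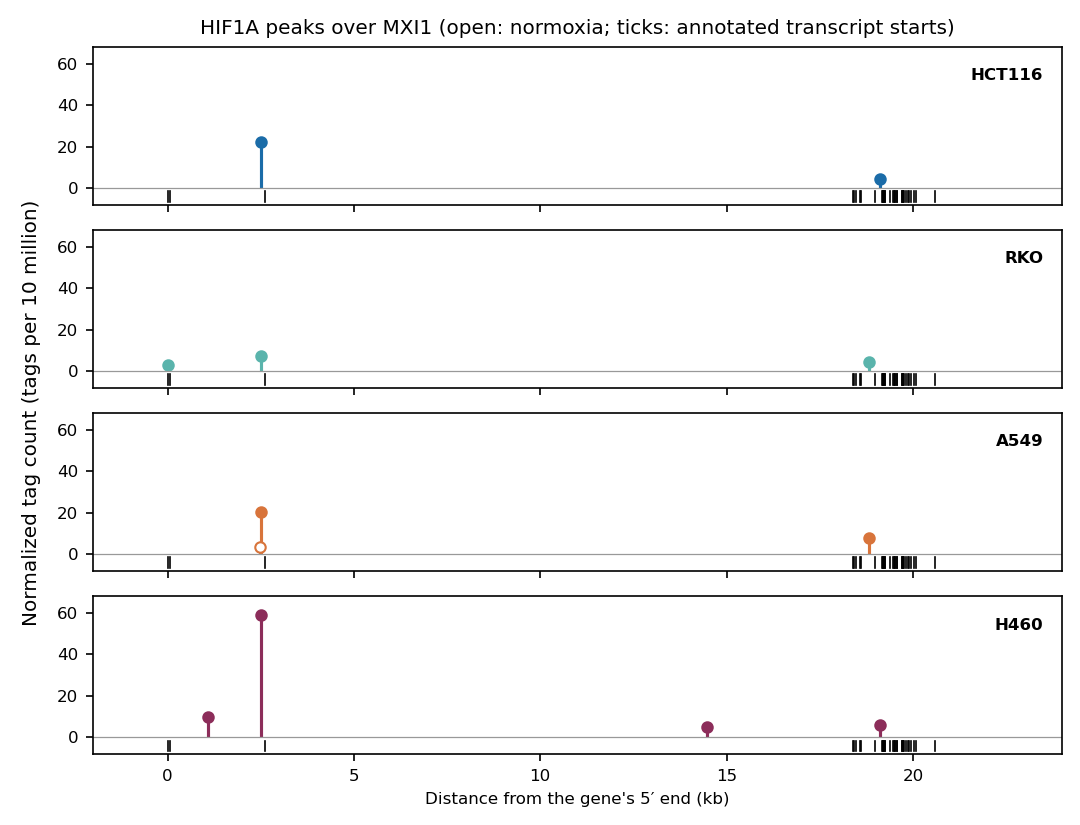
Each panel plots, for 1 line, the normalized tag count (tags per 10 M) of the MXI1 peaks against their distance from the gene’s 5′ end in kb, up to 24 kb, with filled points for hypoxia, an open point for normoxia and ticks at annotated transcript starts. All 4 lines have their tallest peak, from 7.32 in RKO to 58.8 in H460, just before the same transcript start, and a lower peak among the 32 starts between 18 and 21 kb.

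MNT, a MAX partner that acts as a broadly expressed antagonist of MYC, had 5 hypoxia peaks in RKO and H460 and none in HCT116, A549 or normoxia. A region 211 to 258 bp past the transcript start ENST00000574559.1_3 was called in both lines, with 3.74 (2.42 to 5.52) in RKO and 5.66 (3.76 to 8.18) in H460. The ratio of H460 to RKO was 1.51 (0.852 to 2.71), an interval that includes no difference, and 0.547 (0.308 to 0.979) on the relative scale, which turns the order over. The strongest MNT peak was in H460 at chr17:2297460-2297606, with 10.1 (7.50 to 13.3). It lay in an intron 6865 bp from the gene's 5′ end. The nearest start, 409 bp away, was that of an internal transcript with no defined coding sequence. The others were 6.07 (4.09 to 8.66) in H460 and 3.89 (2.54 to 5.69) in RKO, the latter 944 bp upstream of the gene. All 5 held ACGTG or GCGTG. The sequences at the shared region and at the strongest peak, chr17:2303475-2303504 and chr17:2297548-2297577 on the minus strand of GRCh37, are given with matches in capitals because the latter runs on from a TG repeat, where 3 GCGTG overlap.
MNT shared by RKO and H460: gACGTGtacacggGCGTGtgtatagcacac
MNT strongest, H460: tgtgtGCGTGCGTGCGTGcgcgcgcgaccc

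MXD1, MXD3 and MXD4, the other MAX-binding repressors, had low values. MXD3 had 1 peak, in H460 hypoxia, of 4.25 (2.63 to 6.49), 62 bp upstream of the protein-coding transcript ENST00000427908.6_4 and with no motif. MXD1 had 2.99 (1.83 to 4.62) in RKO hypoxia, in an intron 2868 bp from the nearest transcript start, with 1 ACGTG. Its H460 hypoxia peak, at 3.03 (1.70 to 5.00), lay 13 bp upstream of the start of the neighbouring gene SNRNP27 and ranked 3818 of 3877, and its H460 normoxia peak, at 2.81 (1.58 to 4.64), lay inside SNRNP27. The only MXD4 peak, in HCT116 hypoxia at 2.58 (1.59 to 3.94), lay downstream of the gene and 43 bp past the start of POLN, with a single GCGTG 90 bp from the centre. Of these 4 hypoxia peaks, the MXD3 peak alone was within 2500 bp of a transcript start of its own member.

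In the MLX branch, MLX had a hypoxia peak of 5.38 (3.77 to 7.45) in RKO, at place 696 of 9171. Its centre lay 816 bp past the gene's 5′ end and 189 bp upstream of ENST00000588320.1_1, an internal transcript with a retained intron. The H460 hypoxia peak had 3.24 (1.85 to 5.25), at place 3705 of 3877. These hypoxia peaks did not overlap each other or the RKO normoxia peak of 3.77 (2.2 to 6.04), which lay 330 bp upstream of the gene. MLXIP had 1 peak, of 3.31 (2.18 to 4.82) in HCT116 hypoxia, 346 bp upstream of its start. For MLXIPL the only peak was in A549 hypoxia, 4845 bp upstream, at 4.51 (2.79 to 6.89). All 4 of these hypoxia peaks held ACGTG or GCGTG, and those of MLXIP and MLXIPL are the CACGTG peaks shown with MAX. Past the 3′ end of MLXIPL, 14.6 kb outside the gene and so outside the window, RKO had a hypoxia peak of 4.33 and H460 one of 17.0.

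Across the network, 22 of the 29 hypoxia peaks (75.9%) lay within 2500 bp of a transcript start of their member and 20 (69.0%) within 500 bp. Over all protein-coding genes the corresponding shares of 22741 pairs of a gene and a hypoxia peak in its window were 43.3% and 30.1%. With only the outermost 5′ end of each gene, 12 (41.4%) were within 2500 bp, against 31.7%. In all these shares a region called in several lines counts once per line, so the peaks are not independent sites. The main MXI1 region counts 4 times and the MAX promoter 3 times, and MXI1 gave 10 of the 22 peaks. Shares by region were not computed. The 10 peaks that were near an internal start only were 8 at MXI1 and 2 at MNT, and the main MXI1 region fell just outside, at 2501 to 2507 bp. By gene, 6 of 10 members had such a promoter-proximal hypoxia peak, where 28.7% of all protein-coding genes did. These were MAX, MXI1, MXD3, MNT, MLX and MLXIP. For 4 of the 29 peaks, at MAX, MXI1, MXD1 and MXD4, the start of another gene was nearer.

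**Figure D5:**
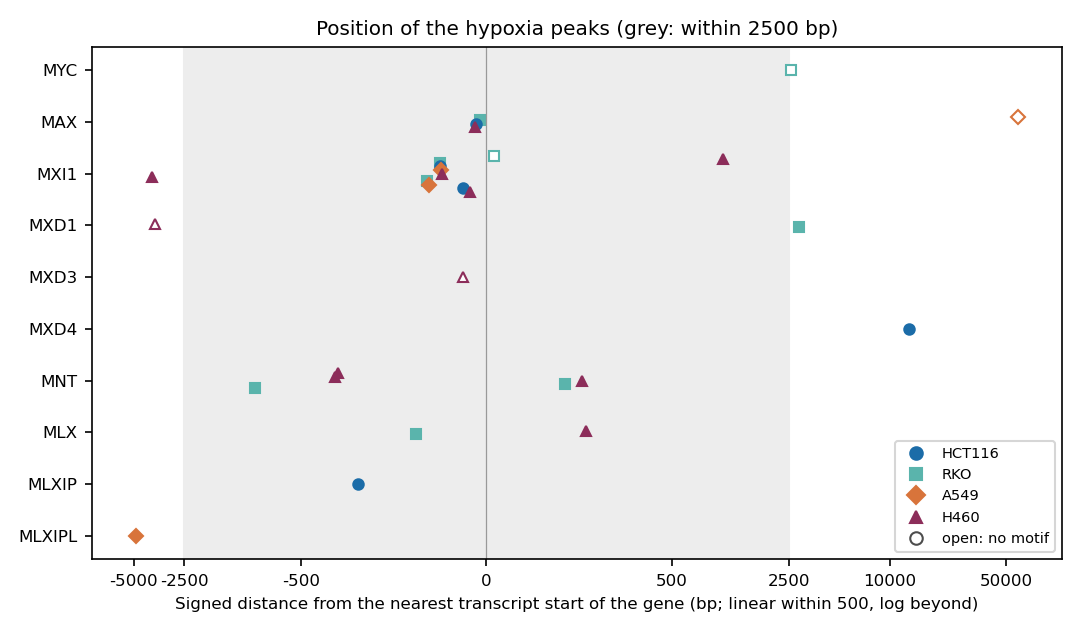
The horizontal axis gives the signed distance in bp of each of the 29 hypoxia peak centres from the nearest transcript start of its gene, linear within 500 bp and logarithmic beyond, and the rows are the genes. Filled symbols hold ACGTG or GCGTG in the central 200 bp, and 22 symbols lie in the grey band of 2500 bp to either side.

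ACGTG or GCGTG, sought in either orientation in the central 200 bp, was present in 24 of the 29 hypoxia peaks (82.8%) and in 4 of the 7 normoxia peaks. The share was 49.9% over all hypoxia peaks and 60.8% over the pairs of a protein-coding gene and a hypoxia peak. The same bases count once for each line that called them, at the main MXI1 region 4 times and at the MAX promoter 3 times. MXI1 gave 10 of the 24, and shares by region were not computed. In HCT116, 5 of 5 member peaks held a motif (65.1% of the list), and RKO had 7 of 9 (30.5%), A549 3 of 4 (52.4%) and H460 9 of 11 (76.9%). Windows of the same length 2000 bp to either side of the list's peaks held it in 19.5% to 24.2%. The RKO normoxia list, source of 4 of the 7 normoxia peaks, held it in 17.7% of peaks and 18.6% of flanking windows, the H460 normoxia list in 15.1% and 16.3%, and the A549 normoxia list in 42.4% and 23.6%. The 5 hypoxia peaks without it were those at MYC, the MAX intron, the first MXI1 start, MXD1 in H460 and MXD3. The MYC peak was the strongest of these within its list, at 2.39% from the top, while the median place from the top was 52.7% for the 5 without a motif and 23.7% for the 24 with one. The ranges were 2.39% to 98.5% and 1.24% to 95.6%, and the 24 hold the main MXI1 region 4 times. The same medians over all peaks were not computed.

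Among 18 other genes of the pathway, taken as a list, 9 had a hypoxia peak in the window, 5 of them in at least 2 lines and 0 in all 4, and 0 had a normoxia peak. Over all protein-coding genes 51.8% had a hypoxia peak, 3.26% had one in every line and 13.1% had a normoxia peak. The share with a hypoxia peak in at least 2 lines was not computed. In hypoxia calls in any line the list as a whole was close to all genes. Of the MYC relatives, 1 of 3 was called, MYCN in RKO (2.69). Of the corepressor genes, 3 of 5 were called. SIN3A, the scaffold that MXD proteins recruit, had 4.29 in HCT116, 13.7 in A549 and 5.05 in H460, the A549 peak 8309 bp from the nearest start, and HDAC1 and SIN3B had none. Of the MYC cofactors and turnover genes, 4 of 8 were called, and the counts of these small groups are to be read beside the same 51.8%. The strongest was USP28, a deubiquitinase that stabilises MYC, with 11.2 in HCT116 and 7.62 in RKO, the HCT116 peak 167 bp upstream of a transcript start. Of the glucose-responsive targets of MLXIP and MLX, ARRDC4 had a peak in RKO (3.29, 204 bp upstream) and TXNIP had none.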

How the data were processed

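The deposited HIF1A ChIP-seq peak lists of 4 cell lines in both oxygen conditions were used. The submitters' processing notes name Bowtie2 2.2.9, SAMtools 1.3.1, Picard 1.129, FastQC 0.11.5 and HOMER 4.3. The authors pooled the 2 replicates of a group, per the file headers, and called peaks against the input of the line. The deposited signal is the normalized tag count, in tags per 10 M. The deposited fold ratio over input and that over the surrounding region were used only as filters. Unscaled tags were computed as the signal times the header total, rounded, and their sums equalled the header totals in all 8 lists.

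Groups came from sample titles. The members, gene lists and comparisons were chosen with earlier results of these data known. All 10 members are named. Regions called in at least 2 hypoxia lists or in any normoxia list, and each member's strongest peak, have their values given. Ratios between lists carry exact conditional binomial 95% intervals, which cover counting error only. Without replicates no p-value was computed. Scripts ran in Python 3.11.15 with pandas 2.3.3, SciPy 1.17.1 and pysam 0.24.0, and were tested on simulated data. Sequences were read from GRCh37. Alternatives were other windows, stricter folds, 1 signal floor for every list, leaving out each line, other motif windows and scaling to common regions.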

Additional observations from a re-analysis of the deposited data

How the results depend on the processing

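No paired analysis was possible because the authors merged replicates 1 and 2 before calling peaks, and for the same reason no replicate could be left out. Of 64 alternative values, 44 stayed within 1.5 times the value reported or within its interval, 17 moved further and 3 turned over. Some of the 44 could not change. Peaks within 2500 bp of a start lie in every window tried, and HCT116 normoxia held no member peak to leave out. With a line left out, members were counted in all remaining lines, which could not lower the count. Of the ratios between lines only the largest of each region was included. The MAX ratio of H460 to RKO, 0.998 when scaled, was not. Shares of all genes were not computed for the altered settings, so the member counts below have none beside them. With a window of 50 kb, 4 members had hypoxia peaks in all 4 lines, and there were 51 hypoxia peaks, 37 with a motif. With 14 as the lowest fold over input throughout, 0 members were called in all 4 lines, since all 3 RKO peaks at MXI1 and the RKO and HCT116 peaks at MAX were lost, and 14 peaks were near a transcript start. With a local fold of at least 6, 5 members had a hypoxia peak and 0 a normoxia peak. The 5 were MAX, MXI1, MNT, MLX and MLXIPL, so MYC was not among them. There were 12 hypoxia peaks, 10 near a start and 11 with a motif. Without RKO, 2 members had a normoxia peak. Without H460 there were 18 hypoxia peaks, 13 near a start and 15 with a motif. Counted from the gene's outermost 5′ end, 12 peaks were near a start. Scaled to the regions called in all 4 lines, the ratio of H460 to HCT116 at MAX was 1.6 and that of H460 to RKO at the main MXI1 region 2.90. The ratio of A549 to RKO at the downstream MXI1 region fell to 0.729, that of H460 to HCT116 next to it to 0.547, and that of H460 to RKO at MNT to 0.547. With 1 signal floor for every list, 9 members kept a hypoxia peak and MXD4 did not. Depth limits the weak member peaks, which rest on as few as 13 tags.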
